A study of Oryza sativa with 17 samples.

Results

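The genes that copy DNA before a cell divides were followed in germinating seeds of 2 rice accessions held at 10 °C. The members were the genes that carried the KEGG pathway for DNA replication in the deposited gene table, 78 of its 23223 genes. The same search also asked for genes described with the words core histone, and 0 genes had them. The core histone genes were therefore taken as a separate list of 21 genes, by the words histone H2A, H2B or H3 in the description, and are given after the members. No description in the table named histone H4. The descriptions themselves named a replication protein for 40 of the 78 members. The other 38 had the pathway but a different or no description, so the KEGG label and the description did not always point to the same protein, and both are given where they differ.

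The tested accession was WR04-6, a weedy rice, and its reference was QSZ, a cultivated rice. Both were sampled as whole germinating seeds 10, 12 or 14 days (DAI) after they began to take up water, with 3 libraries per accession and time point, except that QSZ at 10 DAI had 2 (replicates 2 and 3). RNA was sequenced from poly(A)-selected transcripts, and each gene had an FPKM value, a level corrected for gene length and library total, and an estimated count, in 17 libraries. The study describes the libraries as independent biological samples, and the sources used here do not say how many seeds went into each.

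Before a cell copies its DNA, the helicase formed by MCM2 to MCM7 is loaded onto origins of replication and later unwinds the double strand. Replication protein A (RPA) covers the single strands, DNA polymerase alpha with primase lays down primers, replication factor C (RFC) loads the sliding clamp PCNA, and DNA polymerases delta and epsilon extend the strands. In dry seeds most embryo cells are arrested before this step, and transcripts of these genes are known to accumulate as the root tip of a germinating seed takes up cell division again.

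Differential expression was taken from edgeR's quasi-likelihood test on the estimated counts with TMM scaling and Benjamini-Hochberg (BH) adjustment over 21949 genes, those that reached 0.1 FPKM in 2 or more libraries. A gene was called a DEG at an adjusted p below 0.05 and a log2 fold change of at least 1 in either direction. Of the 78 members, 75 were tested. The other 3 (LOC_Os04g04390, LOC_Os10g11590 and LOC_Os12g06230, all RPA1-type) were at or under 0.1 FPKM in each of the 17 libraries. The FPKM values are scaled to library totals and the fold changes to TMM factors, which lay between 1.04 and 1.13 in WR04-6, against 0.805 and 1.003 in QSZ. In WR04-6 vs. QSZ, a ratio of FPKM is therefore generally larger than the fold change beside it. This does not always hold between time points of QSZ. With library totals in place of TMM, the median log2 fold change of all tested genes was 0.22, 0.44 and 0.38 at 10, 12 and 14 DAI, against 0.03, 0.06 and 0.08 with TMM.

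At 10 DAI, 15 of the 75 tested members were higher and 1 was lower in WR04-6 vs. QSZ, a total of 16, where 23.6% of all tested genes were DEGs. At 12 DAI, 16 were higher and 3 lower, against 29.5% of all tested genes. At 14 DAI, 9 were higher and 1 lower, against 21.3% of all tested genes. Among all tested genes 12.1% were higher and 11.4% lower at 10 DAI. The shares were 16.3% higher and 13.2% lower at 12 DAI, then 10.5% higher and 10.9% lower at 14 DAI. Without the limit on the fold change, 33, 30 and 27 members passed at the 3 time points, against 41.6%, 47.7% and 39.3% of all tested genes. The members called were 21.3%, 25.3% and 13.3% of those tested, a share below that of all genes at each time point, and their median log2 fold change was 0.32, 0.26 and 0.16. The 8 members that were near 0 in QSZ, all of them RPA1-type, were higher at every time point, and without them 7 members were higher and 1 lower at 10 DAI, 8 higher and 3 lower at 12 DAI, then 1 higher and 1 lower at 14 DAI. In limma on log2(FPKM + 1), the split at 12 DAI was 27 higher and 1 lower. Without QSZ replicate 1 of 12 DAI, 31 members were called at 12 DAI. The share of all tested genes called in these other fits was not counted, so the larger numbers cannot be read as particular to the members. In these whole-seed libraries, fewer dividing cells and less RNA per cell cannot be told apart.

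**Figure D1:**
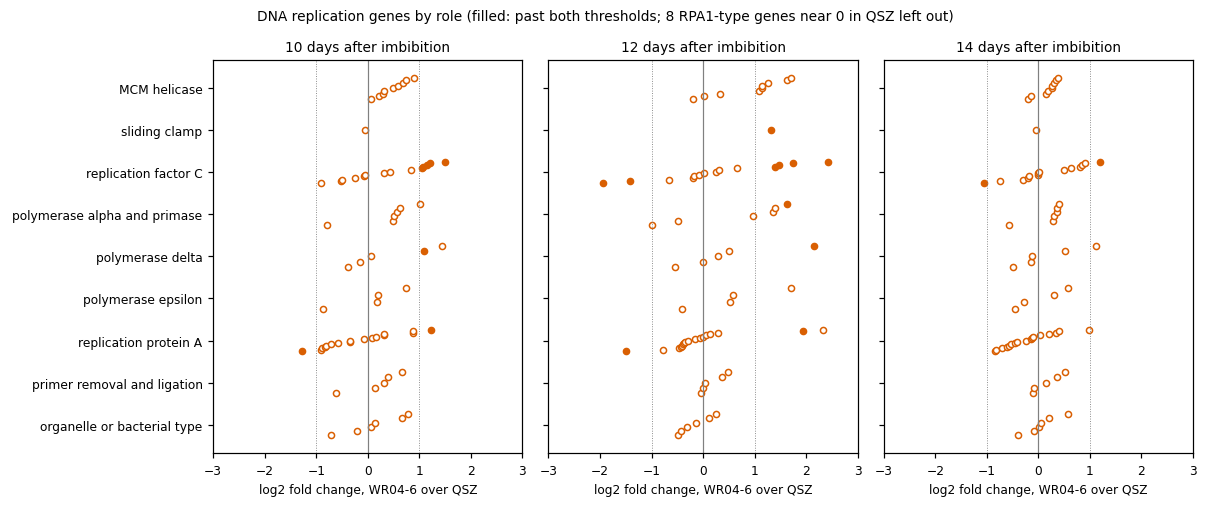
Log2 fold change of the tested members in WR04-6 vs. QSZ at 10, 12 and 14 DAI, grouped by role (rows), after TMM scaling. Filled points are DEGs and open points are not, and the 8 RPA1-type genes near 0 in QSZ are left out. MCM2 to MCM7 lie to the right of 0 at 12 DAI without being called, and the RFC and RPA genes scatter on both sides.

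The clamp and the helicase were examined first. PCNA (LOC_Os02g56130, chromosome 2 from 34351407 to 34353656 as the deposited table places it on the Nipponbare rice genome) had 54.0, 52.8 and 39.4 FPKM in the WR04-6 libraries of 12 DAI, against 31.2, 10.4 and 4.52 FPKM in those of QSZ. All 3 WR04-6 libraries lay above the QSZ libraries. It rose in WR04-6 vs. QSZ at 12 DAI with a log2 fold change of 1.32 (SE 0.51, edgeR's BH-adjusted p = 0.0452). At 10 DAI its levels were 37.3, 50.3 and 39.8 FPKM in WR04-6 and 26.7 and 49.2 FPKM in QSZ. At 14 DAI they were 26.0, 43.6 and 40.0 FPKM in WR04-6 and 15.8, 33.1 and 44.1 FPKM in QSZ. The accessions overlapped at both time points, with log2 fold changes of -0.05 and -0.04. The call at 12 DAI was close to the threshold. It was kept in 5 of the 17 fits with 1 library left out, where the adjusted p was 0.000596 to 0.145, and it was lost with the libraries of 12 DAI alone (adjusted p = 0.132).

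MCM2 (LOC_Os11g29380), MCM3 (LOC_Os05g39850), MCM4 (LOC_Os01g36390), MCM5 (LOC_Os02g55410), MCM6 (LOC_Os05g14590) and MCM7 (LOC_Os12g37400) form a ring of 6 subunits, 1 of each. Their summed level was 99.3, 80.9 and 70.3 FPKM in WR04-6 at 12 DAI, against 56.9, 21.4 and 2.13 FPKM in QSZ. At 10 DAI the sum was 73.4, 86.0 and 65.2 FPKM in WR04-6 and 30.7 and 53.0 FPKM in QSZ. At 14 DAI it was 41.5, 84.9 and 91.4 FPKM in WR04-6 and 28.3, 57.9 and 79.7 FPKM in QSZ. For each of the 6 genes every WR04-6 library was above every QSZ library in FPKM at 10 and at 12 DAI. For each of them the accessions overlapped at 14 DAI. Some gaps were small, as for MCM2 at 12 DAI, with 12.6 FPKM in the lowest WR04-6 library and 12.3 FPKM in the highest of QSZ. FPKM is not TMM-scaled, and the share of all tested genes that were apart in this way was not counted.

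None of the 6 was called in edgeR at 12 DAI, where the QSZ libraries lay far apart, and none had an adjusted p below 0.0632. MCM6 had 15.2, 12.3 and 9.11 FPKM in WR04-6 at 12 DAI, against 7.41, 2.0 and 0.0301 FPKM in QSZ. Its log2 fold change was 1.62 (SE 0.92, edgeR's BH-adjusted p = 0.162). MCM3 had 15.1, 13.0 and 11.6 FPKM in WR04-6, against 7.01, 2.31 and 0.266 FPKM in QSZ, and the largest log2 fold change of the 6, at 1.71 (SE 0.72, edgeR's BH-adjusted p = 0.0632). MCM4 had 21.7, 16.9 and 17.3 FPKM in WR04-6, against 11.7, 5.39 and 1.28 FPKM in QSZ, a log2 fold change of 1.26 (SE 0.53, edgeR's BH-adjusted p = 0.0641). The log2 fold changes of MCM2, MCM5 and MCM7 at 12 DAI were 1.15, 1.09 and 1.15. Over the 6 genes they were 0.32 to 0.90 at 10 DAI and -0.20 to 0.35 at 14 DAI. Limma, which works on log2(FPKM + 0.1) or log2(FPKM + 1), called all 6 at 12 DAI, DESeq2 called 2 of them and edgeR with library totals 2. Limma and library totals leave out TMM, and the median log2 fold change of all tested genes was then 0.43 and 0.30 in limma and 0.44 with totals. Median-ratio scaling, no filter, the libraries of 12 DAI alone and a replicate block called 0 of the 6. With estimated counts divided by 4, 1 was called.

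**Figure D2:**
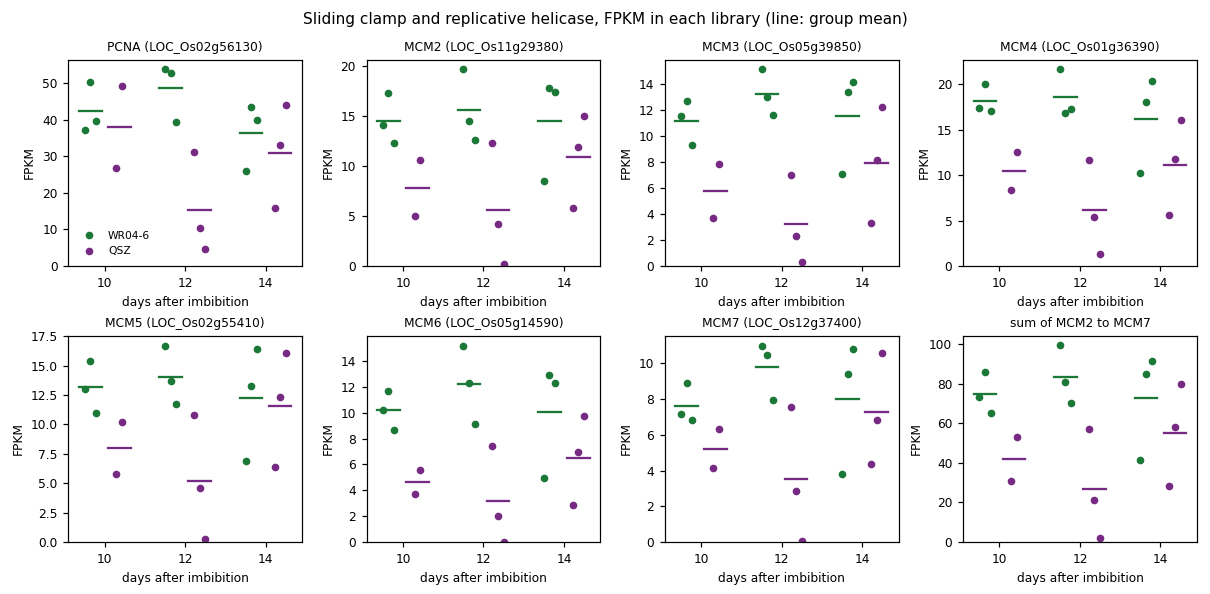
FPKM of PCNA, of each of MCM2 to MCM7 and of the sum of the 6 MCM genes (vertical axes, linear) in each library at 10, 12 and 14 DAI, with WR04-6 left of QSZ and a line at each group mean. At 12 DAI the 3 QSZ libraries spread over a 26.7-fold range in the MCM sum, against 1.41-fold in WR04-6.

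The spread among the QSZ libraries of 12 DAI ran the same way in all 6 MCM genes, with replicate 1 above replicate 2 and replicate 2 above replicate 3. This order was found in 28 of the 75 members (37.3%) and in 30.2% of all tested genes. Replicate 3 was the lowest of the 17 libraries for all 6 MCM genes, for 29 of the 75 members (38.7%) and for 23.0% of all tested genes. The ratio of replicate 1 to replicate 3 in FPKM was 9.11 for MCM4, 26.4 for MCM3, 41.1 for MCM5, 60.4 for MCM2, 93.3 for MCM7 and 246 for MCM6, where replicate 3 had 7 estimated counts, about 2 fragments. For PCNA it was 6.91. The median SD of log2(FPKM + 0.1) in this group was 2.66 over the 6 MCM genes and 0.256 over all tested genes. Replicate 3 also had the fewest genes above 0 (19874) and the lowest TMM factor (0.805) of the 17 libraries, at a total of 67448487 estimated counts that lay within the range of the others. Transcripts of oleosins, the coat proteins of oil bodies in embryo and aleurone, summed to 3380, 4440 and 5320 FPKM in replicates 1, 2 and 3, the opposite order. The part of these differences in the result was not tested.

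The result at 12 DAI therefore depended on which QSZ library was kept. Without QSZ replicate 1 of 12 DAI, all 6 MCM genes and PCNA were called, with log2 fold changes of 2.11 to 3.23 for the MCM genes (edgeR's BH-adjusted p = 0.00357 to 0.0364) and 2.33 for PCNA. Without QSZ replicate 3 of 12 DAI, the MCM genes had 0.53 to 1.17 and PCNA 0.90, and none was called. These leave-out fits at 12 DAI had the same sign for all 7 genes.

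Of the MCM genes by KEGG, 3 more had no MCM description, and their values at 12 DAI were closer to QSZ. LOC_Os11g33100 is described as germin-like protein 11-1, LOC_Os05g08100 as a partial sequence and LOC_Os06g08300 as uncharacterized. At 12 DAI LOC_Os06g08300 had 10.1, 11.2 and 10.9 FPKM in WR04-6 and 7.11, 9.12 and 8.19 FPKM in QSZ. The log2 fold changes of LOC_Os05g08100, LOC_Os06g08300 and LOC_Os11g33100 at 12 DAI were 0.33, 0.02 and -0.20, and none was called.

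Primase and polymerase alpha start each new strand. The primase small subunit (LOC_Os05g29010), which makes the RNA primer, had 7.68, 6.85 and 6.47 FPKM in WR04-6 at 12 DAI, against 3.47, 1.65 and 0.194 FPKM in QSZ. The accessions did not overlap, and replicate 3 of QSZ was again the lowest. It rose in WR04-6 with a log2 fold change of 1.64 (SE 0.64, edgeR's BH-adjusted p = 0.0471), a call that was kept in 2 of the 17 fits with 1 library left out. The primase large subunit (LOC_Os07g22400) had 8.93, 7.42 and 7.81 FPKM in WR04-6 and 4.62, 2.29 and 0.330 FPKM in QSZ, a log2 fold change of 1.40 (SE 0.59, edgeR's BH-adjusted p = 0.0644). The polymerase alpha catalytic subunit (LOC_Os01g64820) had 14.3, 10.5 and 8.75 FPKM in WR04-6 and 9.17, 3.09 and 1.17 FPKM in QSZ. It overlapped by 1 library of each accession, with a log2 fold change of 0.98, and subunit B (LOC_Os12g13950) had 1.37. At 10 and 14 DAI none of these 4 was called, with log2 fold changes of 0.30 to 1.02.

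Both other genes with the KEGG label of primase large subunit are described as ranBP2-type zinc finger proteins, and neither was called. LOC_Os07g30820 had 64.0, 68.5 and 65.5 FPKM in WR04-6 at 12 DAI, against 74.1, 99.4 and 129 FPKM in QSZ. Here QSZ lay above WR04-6 in every library, and replicate 3 was the highest QSZ library. The log2 fold change was -0.999 (SE 0.21, edgeR's BH-adjusted p = 0.00138), just under the fold limit before rounding. LOC_Os08g41010 had log2 fold changes of 0.62, -0.50 and 0.29 at 10, 12 and 14 DAI.

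The polymerase delta catalytic subunit (LOC_Os11g08330), which copies most of the lagging strand, had 17.9, 19.4 and 19.1 FPKM in WR04-6 at 10 DAI, against 7.79 and 7.16 FPKM in QSZ. All WR04-6 libraries were above QSZ, and the gene rose with a log2 fold change of 1.09 (SE 0.20, edgeR's BH-adjusted p = 0.000523). At 12 and 14 DAI the log2 fold changes were 0.51 and 0.52, under the fold limit, with BH-adjusted p of 0.0223 and 0.0245 and every WR04-6 library above QSZ. The call at 10 DAI was lost without QSZ replicate 3 of 10 DAI. The gene shares 488 bases with LOC_Os11g08314 on the opposite strand, and the use of strand in counting is not given in the sources used here, so its values are uncertain by the reads of that gene.

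Subunit 4 of polymerase delta (LOC_Os08g06620), a small accessory subunit, had low levels of 1.47, 2.07 and 1.72 FPKM in WR04-6 at 12 DAI, against 0.354, 0.462 and 0.0748 FPKM in QSZ. It rose with a log2 fold change of 2.15 (SE 0.68, edgeR's BH-adjusted p = 0.0177), and the call was lost only without QSZ replicate 3 of 12 DAI (adjusted p = 0.0557) among the 17 fits. The small subunit of polymerase delta (LOC_Os03g03650) had log2 fold changes of 0.05, 0.29 and -0.12. LOC_Os09g34850, which has the KEGG label of subunit 4 and is otherwise uncharacterized, had the highest level of the class, 33.3, 33.3 and 35.4 FPKM in WR04-6 and 35.1, 44.1 and 36.3 FPKM in QSZ at 12 DAI, and log2 fold changes of -0.38, -0.55 and -0.48.

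For polymerase epsilon, the enzyme of the leading strand, no description named a subunit, and no gene of the catalytic subunit was among the members. LOC_Os05g06840, a second subunit by KEGG, had 6.69, 4.91 and 4.80 FPKM in WR04-6 at 12 DAI, against 2.81, 1.13 and 0.0127 FPKM in QSZ. This is the same order of QSZ libraries as in the MCM genes. Its log2 fold change was 1.71 (SE 0.87, edgeR's BH-adjusted p = 0.120) and it was not called. LOC_Os08g36330, also a second subunit by KEGG, had 0.58 at 12 DAI, and LOC_Os03g63530, subunit 4 by KEGG, had -0.40.

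RFC opens the clamp and sets it on DNA. Of the 5 RFC genes whose descriptions named a subunit, only RFC1 was called, and only at 10 DAI. RFC2 (LOC_Os12g07720) had 20.5, 20.2 and 21.7 FPKM in WR04-6 at 12 DAI, against 13.9, 16.8 and 16.9 FPKM in QSZ, and log2 fold changes of -0.05, 0.01 and -0.01. All WR04-6 libraries were above QSZ in FPKM, and the fold change near 0 is what remained after TMM scaling. RFC3 (LOC_Os02g53500), RFC4 (LOC_Os04g48060) and RFC5 (LOC_Os03g57870) had log2 fold changes of -0.66, 0.25 and -0.17 at 12 DAI. RFC3 shares 849 bases with LOC_Os02g53490 and RFC5 616 bases with LOC_Os03g57854, both on the opposite strand, so their values are uncertain. RFC1 (LOC_Os11g36390), the large subunit, had 33.2, 33.3 and 35.7 FPKM in WR04-6 at 10 DAI, against 13.8 and 14.1 FPKM in QSZ. It rose at 10 DAI with a log2 fold change of 1.06 (SE 0.15, edgeR's BH-adjusted p = 0.000101), and had 0.31 and 0.50 at 12 and 14 DAI. The call was lost when WR04-6 replicate 3 or QSZ replicate 3 of 10 DAI was left out. The other RFC1 gene by KEGG (LOC_Os03g15580) was called at 10 DAI as well, at 1.20 (SE 0.20, edgeR's BH-adjusted p = 0.000273), and had 0.67 and 0.81 later.

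The RFC-type genes with other descriptions held most of the calls of this class. LOC_Os08g02670, an RFC2/4 type gene by KEGG, had 21.0, 16.5 and 13.6 FPKM in WR04-6 at 10 DAI, against 4.72 and 5.48 FPKM in QSZ. At 12 DAI it had 20.7, 18.4 and 17.8 FPKM in WR04-6, against 4.33, 4.98 and 3.79 FPKM in QSZ. At 14 DAI it had 15.1, 17.6 and 15.1 FPKM in WR04-6, against 5.49, 6.69 and 4.97 FPKM in QSZ. The accessions were apart at each time point, and the gene rose by 1.497, 1.75 and 1.19 on the log2 scale (SE 0.17, 0.15 and 0.14, edgeR's BH-adjusted p = 1.19e-05, 5.12e-07 and 2.08e-05). It was the only member outside the 8 near-0 genes that was called higher at all 3 time points, and it was kept in all 17 leave-out fits. LOC_Os10g42400, of the RFC3/5 type, was low, at 3.13, 3.33 and 2.96 FPKM in WR04-6 and 1.16, 1.03 and 0.445 FPKM in QSZ at 12 DAI, and rose by 1.14 at 10 DAI and 1.48 at 12 DAI (edgeR's BH-adjusted p = 0.0101 and 0.000629). Its call at 10 DAI needed both QSZ libraries of that time point.

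LOC_Os05g43650, another RFC2/4 type gene, went the other way. It had 5.45, 5.13 and 4.84 FPKM in WR04-6 at 12 DAI, against 8.80, 11 and 11.8 FPKM in QSZ, and it fell by 1.42 on the log2 scale at 12 DAI and by 1.06 at 14 DAI (edgeR's BH-adjusted p = 6.57e-06 and 0.000107). Its log2 fold change at 10 DAI was -0.92. The call at 14 DAI was lost with library totals, in limma, and without WR04-6 replicate 2 or QSZ replicate 1 of 14 DAI, and the call at 12 DAI was lost in limma on log2(FPKM + 1). LOC_Os02g47605, of the RFC3/5 type, had 1.13, 1.28 and 1.40 FPKM in WR04-6, against 3.44, 3.50 and 4.28 FPKM in QSZ, and fell by 1.94 on the log2 scale at 12 DAI (edgeR's BH-adjusted p = 3.12e-05).

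STICHEL-like proteins carry the RFC label through a domain shared with clamp loaders, and STICHEL itself is known in Arabidopsis for the branching of leaf hairs. STICHEL-like 2 (LOC_Os12g19180) had 10.3, 11.6 and 9.45 FPKM in WR04-6 at 12 DAI, against 3.61, 0.832 and 0.165 FPKM in QSZ. The QSZ replicates again stood in the order seen in the MCM genes, and the gene rose by 2.42 on the log2 scale (SE 0.67, edgeR's BH-adjusted p = 0.00869). STICHEL-like 4 (LOC_Os05g45340) had 4.66, 4.75 and 4.80 FPKM in WR04-6, against 2.72, 0.896 and 0.613 FPKM in QSZ, and rose by 1.40 (SE 0.39, edgeR's BH-adjusted p = 0.00876). Both calls were lost with the libraries of 12 DAI alone. STICHEL-like 3 (LOC_Os01g53070) rose at 10 DAI by 1.07, at 7.25, 8.39 and 4.69 FPKM in WR04-6, against 1.88 and 3.63 FPKM in QSZ (edgeR's BH-adjusted p = 0.00308), and had -0.08 and 0.02 later. That call was lost without WR04-6 replicate 2 or QSZ replicate 2 of 10 DAI.

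RPA is a trimer of RPA1, RPA2 and RPA3. Plants have several RPA1 genes, and in Arabidopsis different copies are known to serve replication, repair and meiosis. Of the 28 members of this class, 23 had the RPA1 label, 4 the RPA2 label and 1 the RPA3 label. RPA2 subunit A (LOC_Os02g58220) had 16.9, 18.7 and 13.5 FPKM in WR04-6 at 12 DAI, against 7.44, 2.53 and 0.155 FPKM in QSZ. It rose by 1.94 on the log2 scale (SE 0.76, edgeR's BH-adjusted p = 0.0490), a call kept in 3 of the 17 leave-out fits. RPA1 subunit B (LOC_Os03g11540) had 38.1, 32.4 and 25.5 FPKM in WR04-6, against 13.3, 1.61 and 0.245 FPKM in QSZ, and missed the threshold with a log2 fold change of 2.34 (SE 0.94, edgeR's BH-adjusted p = 0.0541). Both followed the order of the QSZ libraries seen in the MCM genes.

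Other named RPA subunits had different orders. RPA1 subunit A (LOC_Os02g53680) had 12.4, 10.2 and 11.9 FPKM in WR04-6 at 12 DAI and 7.93, 8.92 and 12.4 FPKM in QSZ, with replicate 3 the highest QSZ library. Its log2 fold change was -0.15, and RPA1 subunit C (LOC_Os05g02040) had 0.29. RPA2 subunit B (LOC_Os02g42230) had 32.9, 31.2 and 37.0 FPKM in WR04-6 and 18.5, 30.0 and 31.9 FPKM in QSZ, a log2 fold change of -0.05. The RPA3 gene (LOC_Os01g14980) had values of -0.91, -0.01 and -0.62 on the log2 scale at 10, 12 and 14 DAI.

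The most abundant member was LOC_Os05g01050, an RPA1-type gene described by an uncharacterized Arabidopsis protein. It had 108, 116 and 123 FPKM in WR04-6 at 12 DAI, against 93.3, 124 and 125 FPKM in QSZ, with log2 fold changes of -0.58, -0.36 and -0.41 at 10, 12 and 14 DAI. LOC_Os01g13700, of the same description, had 51.3, 61.1 and 61.7 FPKM in WR04-6 and 51.2, 60.5 and 53.2 FPKM in QSZ, with -0.34, -0.30 and -0.45. With library totals both were at 0.02 and 0.08 at 12 DAI, so their direction depended on the scaling. LOC_Os01g55030, also described so, fell by 1.28 on the log2 scale at 10 DAI, at 15.4, 8.69 and 7.53 FPKM in WR04-6, against 20.2 and 23.2 FPKM in QSZ (edgeR's BH-adjusted p = 0.0126).

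Near-absence in 1 accession set apart 8 of the 20 tested RPA1-type genes. LOC_Os01g08890 (chromosome 1 from 4459084 to 4484478), described as an RPA1 subunit D, had 4.09 to 11 FPKM in the 9 WR04-6 libraries (median 5.77) and was listed at 0 in all 8 QSZ libraries. Against the limit of 3 fragments, or 12 estimated counts over a group, it was at least 141-fold higher in WR04-6 at 10 DAI, at least 217-fold at 12 DAI and at least 195-fold at 14 DAI. LOC_Os03g63870 (chromosome 3 from 36082359 to 36096572), described as an RPA1 subunit B, had 20.2 to 31.0 FPKM in WR04-6, against at most 0.536 FPKM in QSZ, where 4 of 8 libraries were at 0. LOC_Os12g35465 (chromosome 12 from 21568373 to 21571189) had 13.7 to 20.7 FPKM in WR04-6, against 0.129 FPKM in QSZ replicate 1 of 12 DAI and 0 in the other 7 QSZ libraries.

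LOC_Os06g22380 (chromosome 6 from 12990974 to 13000961), another RPA1 subunit D, had 3.84 to 6.10 FPKM in WR04-6, against 0.0473 to 0.215 FPKM in QSZ. It was the only one of the 8 with reads in every QSZ library, and it rose by 5.02, 5.19 and 4.85 on the log2 scale (SE 0.49, 0.41 and 0.40, edgeR's BH-adjusted p = 3.74e-06, 3.00e-07 and 5.39e-07). LOC_Os01g62750 had 9.28 to 15.0 FPKM in WR04-6 and at most 0.0944 FPKM in QSZ. LOC_Os01g73070, LOC_Os12g27370 and LOC_Os01g14770 had 2.38 to 4.47, 1.34 to 4.31 and 1.41 to 2.23 FPKM in WR04-6, against at most 0.0414, 0.0109 and 0.0331 FPKM in QSZ. All 8 were called at all 3 time points and kept in all 17 leave-out fits of each. They were picked from the same values for being near 0 in QSZ, so these calls and p-values are no separate support. Some, such as LOC_Os01g08890, also passed the filter of 0.1 FPKM only through WR04-6.

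In all, 8 of the 75 tested members (10.7%) were above 1 FPKM in all 9 WR04-6 libraries and below 1 FPKM in all 8 QSZ libraries, against 590 of the 21949 tested genes (2.69%). The opposite pattern was seen in 0 members and in 121 of all tested genes (0.551%). The pattern was noticed in the data before it was counted. Whether these genes are missing or different in sequence in QSZ, so that its reads did not map, or silent there was not tested. The other 12 tested RPA1-type genes were above 0 in every library of both accessions.

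**Figure D3:**
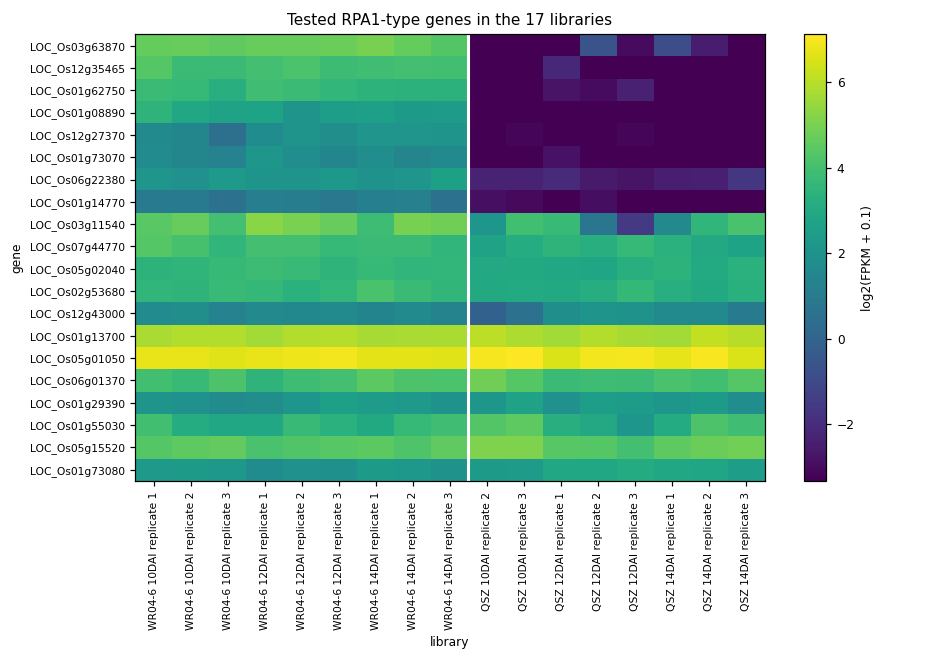
Level of the 20 tested RPA1-type genes (rows) in each of the 17 libraries (columns, WR04-6 left of QSZ) as log2(FPKM + 0.1). The 8 genes near 0 in QSZ form a block that is filled in the 9 WR04-6 libraries. In the 8 QSZ libraries these genes are at 0 or low, up to 0.536 FPKM.

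LOC_Os01g73080, an RPA1-type gene with an uncharacterized description, had 3.26, 3.80 and 3.64 FPKM in WR04-6 at 12 DAI, against 7.47, 7.37 and 8.42 FPKM in QSZ, and fell by 1.499 on the log2 scale (SE 0.14, edgeR's BH-adjusted p = 1.09e-06). Its log2 fold changes were -0.34 at 10 DAI and -0.84 at 14 DAI. It overlaps with LOC_Os01g73070 on the opposite strand, 1 of the 8 near-0 genes, so both values are uncertain. In all, 7 members overlap another gene of the table.

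Enzymes that remove primers and join the fragments were not called. FEN1 (LOC_Os05g46270), which cuts the flap left by the primer, had 30.3, 32.5 and 31.1 FPKM in WR04-6 at 12 DAI, against 17.2, 18.8 and 15.6 FPKM in QSZ. The accessions were apart at each time point, but the log2 fold changes were 0.31, 0.49 and 0.37 (edgeR's BH-adjusted p = 0.0330, 0.000953 and 0.00860), under the fold limit. Over the 17 libraries its FPKM was 15.5 to 33.8, and QSZ replicate 3 of 12 DAI, at 15.6, was not the lowest. DNA ligase (LOC_Os10g34750), which seals the nick, had 20.7, 19.6 and 19.6 FPKM in WR04-6 and 18.9, 14.0 and 14.9 FPKM in QSZ, with log2 fold changes of 0.67, -0.05 and 0.16. Subunits A, B and C of RNase H2, which cuts RNA out of DNA, had 0.36, 0.04 and 0.00 at 12 DAI. In edgeR, 0 of these 5 genes passed both thresholds at 10, 12 or 14 DAI.

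Of the 6 members of organelle or bacterial type, 0 were called in edgeR at 10, 12 or 14 DAI. The mitochondrial single-stranded DNA-binding protein (LOC_Os01g45530) had 29.7, 26.0 and 30.6 FPKM in WR04-6 at 12 DAI, against 25.9, 33.5 and 29.4 FPKM in QSZ, with log2 fold changes of -0.71, -0.42 and -0.39. The chloroplastic-type DNA polymerase I (LOC_Os04g54500) had 18.6, 15.5 and 16.4 FPKM in WR04-6, against 13.8, 11.6 and 10.7 FPKM in QSZ, with 0.67, 0.11 and 0.57. Neither had its lowest level in QSZ replicate 3 of 12 DAI.

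Within WR04-6, 0 of the 75 members were called between time points in edgeR, against 0.0273% of all tested genes for 12 vs. 10 DAI, 0.688% for 14 vs. 12 DAI and 0.241% for 14 vs. 10 DAI. At an unadjusted p below 0.05 the numbers were 8, 7 and 5, and the share of all tested genes at that threshold was not counted. DESeq2 and limma also called 0. The WR04-6 libraries of 14 DAI were not alike, since replicate 1 had an MCM sum of 41.5 FPKM, against 84.9 and 91.4 FPKM in replicates 2 and 3.

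Within QSZ, 4 members rose and 3 fell at 12 vs. 10 DAI, against 13.3% of all tested genes (5.55% rose and 7.72% fell). None was an MCM gene, PCNA or a primase. Without QSZ replicate 1 of 12 DAI, 4 rose and 11 fell, and MCM3, MCM4, PCNA and the primase small subunit were then among those that fell. Without QSZ replicate 3 of 10 DAI, 4 rose and 0 fell. No share of all tested genes was counted in these leave-out fits, so the changes cannot be read as particular to the members. The 6 MCM genes overlapped between these time points, and their sum was 56.9, 21.4 and 2.13 FPKM at 12 DAI, against 30.7 and 53.0 FPKM at 10 DAI. STICHEL-like 2 (LOC_Os12g19180) fell by 2.23 on the log2 scale, at 3.61, 0.832 and 0.165 FPKM at 12 DAI, against 7.48 and 7.85 FPKM at 10 DAI (edgeR). LOC_Os01g55030 fell by 1.47 and LOC_Os09g39490, the third subunit of polymerase epsilon by KEGG, by 1.19. LOC_Os12g43000, of the RPA1 type, rose by 1.95 on the log2 scale, at 3.62, 4.08 and 4.02 FPKM at 12 DAI, against 0.859 and 1.37 FPKM at 10 DAI. LOC_Os02g47605 rose by 1.58 and STICHEL-like 3 (LOC_Os01g53070) by 1.20, and the other was the near-0 gene LOC_Os01g62750. Of these 7 calls, that of LOC_Os12g19180 was lost without QSZ replicate 2 or 3 of 10 DAI or replicate 2 of 12 DAI, that of LOC_Os01g55030 without QSZ replicate 3 of 10 DAI, that of LOC_Os01g53070 without QSZ replicate 2 of 10 DAI, and that of LOC_Os09g39490 without QSZ replicate 3 of 10 DAI or replicate 2 or 3 of 12 DAI.

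At 14 vs. 10 DAI in QSZ, LOC_Os12g43000 and LOC_Os01g53070 rose, by 1.26 and 1.09, against 1.62% of all tested genes called, and both calls were lost without QSZ replicate 2 of 10 DAI or replicate 1 of 14 DAI. At 14 vs. 12 DAI the 1 call, against 0.282%, was LOC_Os01g62750 with 20 estimated counts over all QSZ libraries, and it was kept in 8 of the 17 leave-out fits and lost when the estimated counts were divided by 4 to stand for fragments. Without QSZ replicate 1 of 12 DAI, 7 members rose and 2 fell at 14 vs. 12 DAI, with MCM3 and PCNA among those that rose. The share of all tested genes called in that fit was not counted. The MCM sum in QSZ at 14 DAI, 28.3, 57.9 and 79.7 FPKM, was above the sum of replicates 2 and 3 of 12 DAI in every library, while replicate 1 of 12 DAI lay within its range.

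Whether the accession difference changed between time points was tested by the interaction of accession and time. Of the 75 members, 16 had an unadjusted p below 0.05, a threshold at which the share of all tested genes was not counted. At an adjusted p below 0.05, 6 members passed, against 8.98% of all tested genes. The number was 11 without QSZ replicate 1 of 12 DAI and 3 without WR04-6 replicate 2 or 3 of 12 DAI. None of the 6 was an MCM gene, PCNA, or a subunit of primase or polymerase alpha named by its description (0 of 11 in edgeR, and 0 of 11 at an unadjusted p below 0.05), so the larger difference of these genes at 12 DAI was not shown to differ from that at 10 or 14 DAI. LOC_Os12g43000 was the clearest of the 6. It had 3.22, 3.52 and 2.41 FPKM in WR04-6 at 10 DAI, against 0.859 and 1.37 FPKM in QSZ, and 2.95, 2.82 and 3.08 FPKM in WR04-6 at 12 DAI, against 3.62, 4.08 and 4.02 FPKM in QSZ. The accessions did not overlap at either time point, in opposite directions, with log2 fold changes of 1.22 and -0.78 (edgeR interaction test, edgeR's BH-adjusted p = 0.0129).

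Core histones package the copied DNA, and in plants most of their transcripts are made while DNA is being replicated, while variants such as H2A.Z and H3.3 are also made at other times. Of the 21 genes, 20 were tested. At 12 DAI, 10 of the 20 were higher and 0 lower in WR04-6 vs. QSZ, against 29.5% of all tested genes called, with a median log2 fold change of 1.16 against 0.06. At 10 DAI 0 were higher and 1 lower, against 23.6% of all tested genes called, with a median of -0.60. At 14 DAI 1 was higher and 0 lower, against 21.3% of all tested genes, with a median of 0.29. The 1 call at 10 DAI depended on the setting, with 1 higher and 0 lower in limma, 0 higher and 3 lower in DESeq2, and 5 calls without QSZ replicate 2 of 10 DAI. Several of the H2A and H2B genes are near copies of each other, and reads may have been divided between them, so single genes are uncertain. At 12 DAI the number of calls was 5 without QSZ replicate 2 of 12 DAI and 14 with library totals. The shares of all tested genes called in these other fits were not counted.

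H2A.5 (LOC_Os03g17100) had 88.2, 107 and 90.8 FPKM in WR04-6 at 12 DAI, against 17, 4.48 and 1.05 FPKM in QSZ. The QSZ libraries stood in the order of the MCM genes, which was found in 4 of the 20 core histones (20.0%) and in 30.2% of all tested genes, and the gene rose by 3.33 on the log2 scale (SE 0.79, edgeR's BH-adjusted p = 0.00339). It was chosen after its values were seen. At 10 DAI it had 90.8, 90.3 and 36.3 FPKM in WR04-6 and 27.7 and 131 FPKM in QSZ, so the accessions overlapped. H3-5 (LOC_Os05g41080) had 7.26, 12.6 and 11.1 FPKM in WR04-6 at 12 DAI, against 2.63, 2.0 and 3.42 FPKM in QSZ, and rose by 1.55 (SE 0.31, edgeR's BH-adjusted p = 0.000928). The H3.3 gene (LOC_Os12g22680) had 2.96, 3.01 and 1.84 FPKM in WR04-6, against 0.619, 0.472 and 0.807 FPKM in QSZ, and rose by 1.64 (SE 0.61, edgeR's BH-adjusted p = 0.0396).

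The most abundant histone genes differed less. H2A variant 3 (LOC_Os03g53190) had 126, 153 and 147 FPKM in WR04-6 at 12 DAI, against 97.3, 122 and 109 FPKM in QSZ, with log2 fold changes of -0.80, 0.00 and -0.32 at 10, 12 and 14 DAI. H2B.11 (LOC_Os01g62230) had 81.7, 87.7 and 98.2 FPKM in WR04-6, against 61.0, 64.8 and 70.3 FPKM in QSZ, with -0.90, 0.07 and -0.33, and H2B.6 (LOC_Os01g05970) had -0.68, 0.79 and 0.26. H2A.4 (LOC_Os05g38640) was below QSZ at each time point, with -0.99, -0.65 and -0.84, under the fold limit, and its FPKM at 12 DAI was 73.9, 74.0 and 80.7 in WR04-6, against 75.6, 93.1 and 106 in QSZ.

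The summed level of the list was 834, 1030 and 920 FPKM in WR04-6 at 12 DAI, against 486, 460 and 513 FPKM in QSZ. Replicate 3 of QSZ, which had almost no MCM transcript, had the highest of the 3 sums. At 10 DAI the sum was 868, 839 and 593 FPKM in WR04-6 and 759 and 1370 FPKM in QSZ. At 14 DAI it was 642, 720 and 815 FPKM in WR04-6, against 474, 727 and 640 FPKM in QSZ. The accessions were apart at 12 DAI and overlapped at 10 and 14 DAI. Within QSZ, 11 of the 20 genes fell and 0 rose at 12 vs. 10 DAI, with a median of -1.25. Of all tested genes, 7.72% fell and 5.55% rose. Without QSZ replicate 3 of 10 DAI, the library with the sum of 1370 FPKM, 0 were called, and without QSZ replicate 2 of 12 DAI 5 were. Within WR04-6, 0 of the 20 were called in edgeR between time points, and DESeq2 and limma also called 0. The interaction test was passed by 6 of the 20, against 8.98% of all tested genes, of which 5 were among the 7 H2B genes.

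**Figure D4:**
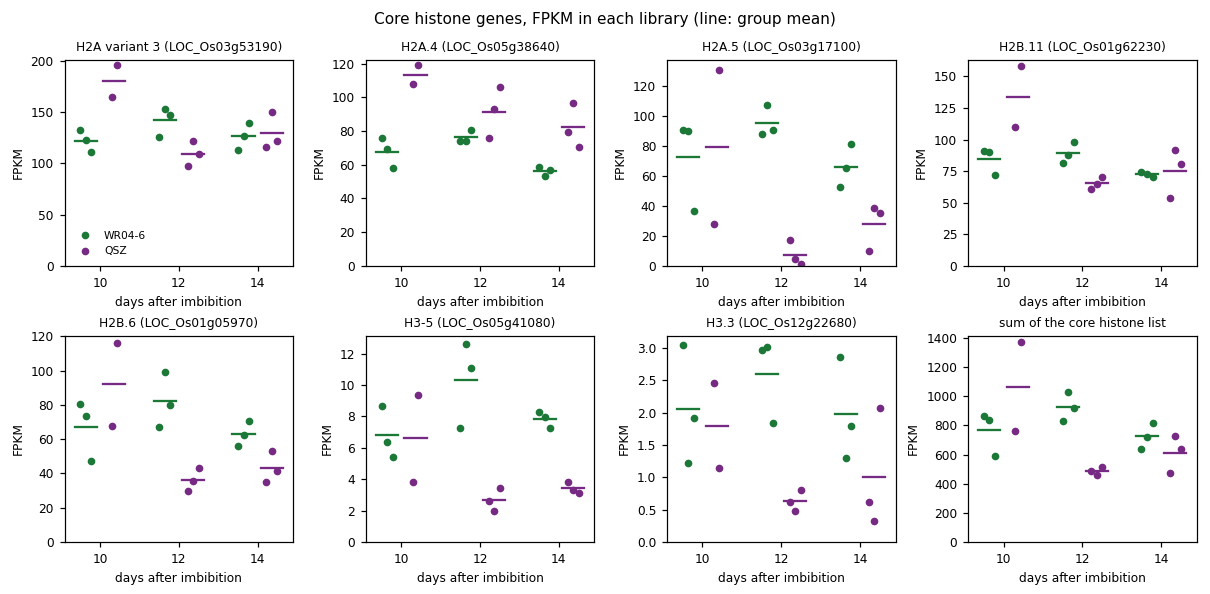
FPKM of 7 core histone genes and of the sum of the list (vertical axes, linear) in each library at 10, 12 and 14 DAI, with WR04-6 left of QSZ and a line at each group mean. At 12 DAI the sums of the 3 WR04-6 libraries lie above those of QSZ, and H2A.5 has 1.05 to 17 FPKM in QSZ where H2A variant 3 has 97.3 to 122.

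Other genes of the cell cycle were taken by their descriptions, as a list of 126 genes that were no members, of which 125 were tested. At 12 DAI, 45 were higher and 8 lower in WR04-6 vs. QSZ, against 29.5% of all tested genes called, with a median log2 fold change of 0.64. At 10 DAI, 18 were higher and 8 lower, against 23.6% of all tested genes called, with a median of 0.29. At 14 DAI, 16 were higher and 5 lower, against 21.3% of all tested genes, with a median of 0.38. Without QSZ replicate 2 of 10 DAI, 14 were called at 10 DAI. With limma on log2(FPKM + 0.1), 27 were higher and 3 lower at 10 DAI, 60 higher and 5 lower at 12 DAI, then 37 higher and 3 lower at 14 DAI. In that fit, which leaves out TMM, the median log2 fold change of all tested genes was 0.26, 0.43 and 0.35. With TMM in edgeR it was 0.03, 0.06 and 0.08. The share of all tested genes called was not counted in the limma or leave-out fits, so these numbers cannot be read as particular to the list. Among 41 tested cyclins, 17 were higher and 2 lower at 12 DAI, and among 36 genes of mitosis 16 were higher and 1 lower. The word search also took cyclins of transcription (types C, T and L) and topoisomerases, which do not drive the cell cycle.

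Of 6 genes of helicase loading and activation, 2 were called at 12 DAI, CDC6 and 1 of 2 genes described as CDT1-like protein a. CDC6 (LOC_Os01g63710), which brings MCM to the origin, had 5.80, 5.11 and 3.49 FPKM in WR04-6 at 12 DAI, against 1.14, 0.123 and 0.172 FPKM in QSZ, and rose by 2.11, 2.97 and 1.97 on the log2 scale at 10, 12 and 14 DAI (edgeR's BH-adjusted p = 0.0411, 0.00272 and 0.0288). The CDT1-like gene LOC_Os10g34820, for a partner of CDC6, had 9, 9.36 and 8.22 FPKM in WR04-6, against 2.39, 1.68 and 2.15 FPKM in QSZ, and rose by 1.41, 1.72 and 1.72 (edgeR's BH-adjusted p = 0.000435, 2.10e-05 and 2.76e-05). The other CDT1-like gene (LOC_Os04g10650) had 3.57, 3.81 and 3.46 FPKM in WR04-6, against 2.51, 1.25 and 0.142 FPKM in QSZ, and was not called at any time point, with log2 fold changes of 0.97, 1.13 and -0.05 (edgeR's BH-adjusted p = 0.278, 0.135 and 0.957). CDC6 and both CDT1-like genes were chosen after their values were seen. The GINS subunits PSF2 (LOC_Os01g14610) and SLD5 (LOC_Os05g05150), parts of the active helicase, had log2 fold changes of 0.16 and 0.61 at 12 DAI and were not called.

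Genes that act before and after replication were also examined. Cyclin D5-3 (LOC_Os03g10650) had 41.1, 30.1 and 33.6 FPKM in WR04-6 at 12 DAI, against 6.06, 5.66 and 4.14 FPKM in QSZ, and rose by 1.99, 2.36 and 2.27 on the log2 scale at the 3 time points (edgeR's BH-adjusted p = 9.28e-06, 3.33e-07 and 5.34e-07). D-type cyclins act at the entry into the cycle. Cyclin B2-1 (LOC_Os04g47580), a cyclin of mitosis, had 14.5, 18.9 and 18.4 FPKM in WR04-6, against 1.15, 0.932 and 0.0160 FPKM in QSZ, and rose by 4.28 at 12 DAI (SE 1.004, edgeR's BH-adjusted p = 0.00307). CDKB2-1 (LOC_Os08g40170), its kinase partner in plants, rose by 3.20 (SE 0.68, edgeR's BH-adjusted p = 0.00153). At 10 DAI CDKB2-1 had 28.9, 15.1 and 6.10 FPKM in WR04-6 and 3.26 and 30.0 FPKM in QSZ, overlapping. These 3 genes were chosen after their values were seen. The 2 most abundant cyclins and the 2 most abundant CDK genes differed less and were not called at 12 DAI. Mean FPKM in WR04-6 and QSZ was 92.8 and 89.7 for cyclin-B1-2-like (LOC_Os02g55640) and 63.7 and 49.1 for cyclin-C1-1 (LOC_Os09g32680). For the CDK genes LOC_Os06g02550 and LOC_Os01g72790 it was 92.7 and 51.5 in WR04-6, against 76.3 and 50.9 in QSZ. Their direction depended on the scaling.

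The retinoblastoma-related gene LOC_Os11g32900, which restrains entry into replication, had 20.7, 23.6 and 24.5 FPKM in WR04-6 at 10 DAI, against 7.48 and 8.05 FPKM in QSZ, and rose by 1.33 on the log2 scale (SE 0.15, edgeR's BH-adjusted p = 1.13e-05), with 0.46 and 0.69 later. The CDK inhibitor 1 gene (LOC_Os02g52480), whose product brakes the cycle, rose by 1.12 at 12 DAI (SE 0.20, edgeR's BH-adjusted p = 0.000393), at 22.7, 23.4 and 24.1 FPKM in WR04-6, against 9.74, 7.27 and 7.98 FPKM in QSZ. The list has 4 CDK inhibitor genes. CDK inhibitor 5 (LOC_Os03g04490) was also higher in mean FPKM at 12 DAI, with 7.13 in WR04-6 and 4.12 in QSZ. CDK inhibitors 3 (LOC_Os11g40030) and 4 (LOC_Os10g33310) were lower, with 2.8 and 9.59 in WR04-6, against 4.25 and 12.8 in QSZ. Linker histone H1 (LOC_Os06g04020) fell by 1.38, 1.64 and 1.41 on the log2 scale. The small subunit of ribonucleotide reductase (LOC_Os06g14620), which supplies deoxynucleotides, had 26.1, 23.9 and 17.2 FPKM in WR04-6 at 12 DAI, against 12.2, 6.21 and 5.90 FPKM in QSZ, and rose by 1.11 (SE 0.36, edgeR's BH-adjusted p = 0.0213). Thymidine kinase (LOC_Os03g02200) had 0.01.

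The markers of the seed were all above 0, 36 of 36 storage proteins of the endosperm, 6 of 6 oleosins and 12 of 12 chlorophyll-binding proteins. Over the libraries, the summed endosperm markers had 10100 to 33500 FPKM in WR04-6, against 29900 to 98100 FPKM in QSZ, and the oleosins 145 to 487 FPKM in WR04-6, against 1250 to 5320 FPKM in QSZ. The chlorophyll-binding proteins had 94.1 to 195 FPKM in WR04-6 at 12 DAI, against 19.0 to 24.4 FPKM in QSZ, and the accessions overlapped at 10 DAI (61.6 to 349 FPKM in WR04-6, 65.1 and 335 FPKM in QSZ) and at 14 DAI (58.7 to 134 FPKM in WR04-6, 21.9 to 65.0 FPKM in QSZ). QSZ replicate 3 of 10 DAI, with 335 FPKM, was also the library with the highest histone sum. The oleosin sums of the accessions did not overlap, the endosperm sums overlapped by 1 WR04-6 library, and their part in the differences was not tested. Library totals ran between 51209499 and 72494532 estimated counts in WR04-6, against 33280479 and 68909607 in QSZ, lowest in the 2 libraries of QSZ at 10 DAI.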

How the data were processed

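RNA-seq libraries of whole seeds germinating at 10 °C were taken from 1 deposited gene table. The authors mapped paired reads to the rice (Nipponbare) genome and deposited an FPKM value and an estimated count per gene and library. The submitters' processing notes name cutadapt 1.9, HISAT2 2.0.4 and StringTie 1.3.4d. How reads were counted, and whether by strand, is not stated in the sources used here. The most frequent low estimated count was 4 in each of the 17 libraries, so 1 fragment was taken as about 4 estimated counts. The deposited estimated counts were whole numbers and were tested in edgeR 4.0.16 (TMM, quasi-likelihood F test, all 17 libraries in one fit, R 4.3.3), for genes with at least 0.1 FPKM in at least 2 libraries. P-values were BH-adjusted over 21949 genes, and the script was tested on simulated data. Each SE was derived from the F test, as the absolute log2 fold change divided by the square root of F. The authors' mapping is to another accession than both studied here, which can lower the FPKM of genes that differ in sequence. DESeq2 1.42.0, limma 3.58.1, other scalings, no filter, the compared groups alone, a replicate block and leaving out each library were alternatives.

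The members and lists were chosen with earlier results of these data known. Genes were named by a rule: PCNA and MCM2 to MCM7, the 2 most abundant members of each role, up to 5 called members in each direction and contrast without overlap and with a mean of at least 1 FPKM, and the 2 most abundant genes of each cell cycle class. The rule also named the E2F-associated phosphoprotein gene LOC_Os02g42374 and the nucleosome assembly protein gene LOC_Os06g05660. Their mean FPKM at 12 DAI was 8.34 and 85.9 in WR04-6, against 9.15 and 59.4 in QSZ. Further members were named after their values were seen, to describe the rest of each class, and so were further genes of the histone and cell cycle lists. Library size was 33280479 to 72494532 estimated counts. A value of 0 allows up to 3 fragments, counting error only.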

Additional observations from a re-analysis of the deposited data

Results flagged for a closer look

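Among the genes named by the rule, the difference between WR04-6 and QSZ changed between time points in 12, by the interaction test of edgeR (BH-adjusted p below 0.05), which set them apart for a closer look. Over the full lists, 6 members, 6 of 20 core histones and 10 of 125 cell cycle genes passed, against 8.98% of all tested genes. No group had enough libraries for a test of single outlying samples. Of the members, LOC_Os12g43000 had an adjusted p of 0.0129, LOC_Os01g62750 of 0.0134, LOC_Os01g73080 of 0.0145, LOC_Os08g41010 of 0.0193, LOC_Os08g07840 of 0.0415 and LOC_Os02g47605 of 0.0423. With 1 library left out, the result was kept in all 17 fits for LOC_Os12g43000, LOC_Os01g62750 and LOC_Os01g73080, in 15 for LOC_Os08g41010, in 7 for LOC_Os08g07840 and in 5 for LOC_Os02g47605. LOC_Os01g62750 rests on 20 estimated counts over all QSZ libraries and was lost in limma and with estimated counts divided by 4. LOC_Os08g07840, a chloroplastic DNA polymerase I, had log2 fold changes of 0.78, -0.50 and 0.21 at 10, 12 and 14 DAI.

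Of the named core histones, H2B.6 (LOC_Os01g05970) had an adjusted p of 0.0353, H2A variant 3 (LOC_Os03g53190) of 0.0411 and H2B.11 (LOC_Os01g62230) of 0.0492. These 3 had their lowest log2 fold change at 10 DAI, with -0.68, -0.80 and -0.90, where QSZ had 2 libraries. The other core histones that passed were the H2B.3 genes LOC_Os01g05900 (0.0152), LOC_Os01g05610 (0.0154) and LOC_Os01g05630 (0.0372). Of the named cell cycle genes, LOC_Os07g44004 (anaphase-promoting complex subunit 13) had an adjusted p of 0.0157, the retinoblastoma-related gene LOC_Os11g32900 of 0.0301 and LOC_Os08g40790 (described as spindle pole body component 110) of 0.0334. The other 7 had adjusted p of 0.0131 for LOC_Os04g40940 (spindle checkpoint protein MAD2), 0.0143 for LOC_Os02g39010 (CDKG-1), 0.0313 for LOC_Os05g33040 (cyclin-P3-1), 0.0351 for LOC_Os05g51790 (SMC5), 0.0374 for LOC_Os03g02680 (CDKA-1), 0.0394 for LOC_Os03g01850 (CDKA-1-like) and 0.0473 for LOC_Os04g41100 (CDKG-2).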

How the results depend on the processing

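The alternatives for the cell cycle and core histone lists were chosen after seeing the data. Of the named members' and genes' fold changes under other settings, 617 kept their direction and side of the threshold, 42 gained the call, 20 lost it and 31 reversed, and with 1 library left out the numbers were 1143, 11, 34 and 19. The cause was not tested. Members called without a fold limit were 33, 30 and 27 at 10, 12 and 14 DAI and 18 for QSZ 12 vs. 10 DAI. Limma on log2(FPKM + 0.1) called 31 at 12 DAI. For QSZ 12 vs. 10 DAI, limma on log2(FPKM + 1) and the groups alone called 3 each. For QSZ 14 vs. 12 DAI, DESeq2 called 4, and both limma fits, the groups alone and counts divided by 4 called 0. For QSZ 14 vs. 10 DAI, library totals called 1, DESeq2 4, and limma on log2(FPKM + 1) and the groups alone 0. DESeq2 gave 12 interactions. With 1 library left out, members called were 15 to 17, 16 to 31 and 9 to 11 at 10, 12 and 14 DAI, 0 to 0 in each WR04-6 time contrast, 4 to 15, 0 to 9 and 0 to 3 in QSZ (12 vs. 10, 14 vs. 12, 14 vs. 10 DAI) and 3 to 11 interactions. The values 31, 15, 9 and 11 came without QSZ replicate 1 of 12 DAI. Shares over all tested genes were counted in the main fit only, not in the leave-out or other fits.

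For the cell cycle list at 14 DAI, library totals called 38, limma 40 and 33 and the groups alone 32. For WR04-6 14 vs. 10 DAI, DESeq2 and limma on log2(FPKM + 1) called 1. For QSZ, the groups alone called 5 at 12 vs. 10 DAI, DESeq2 4 at 14 vs. 12 DAI, and totals, DESeq2 and both limma fits 1 at 14 vs. 10 DAI. With 1 library left out the counts were 14 to 33, 48 to 60 and 18 to 29 at 10, 12 and 14 DAI, 0 to 0, 0 to 1 and 0 to 0 in WR04-6 and 8 to 31, 0 to 14 and 0 to 3 in QSZ.

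With a replicate block, members called were 16, 17 and 10 at 10, 12 and 14 DAI, 6, 0 and 1 in QSZ and 4 interactions, and the cell cycle list had 0 at WR04-6 14 vs. 12 DAI. PCNA, RPA2 subunit A and the primase small subunit lost their calls at 12 DAI. The numbers do not pair the libraries: 7 of 40 same-numbered pairs had r above 0.1 and 3 of 17 libraries correlated best with their own number.

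Reversed values at 12 DAI were log2 fold changes of genes that were not called, of which LOC_Os05g01050 and LOC_Os01g72790 had -0.36 and LOC_Os02g55640 -0.33 with TMM. With totals, limma on log2(FPKM + 0.1) and on log2(FPKM + 1), LOC_Os10g34750 had 0.33, 0.33 and 0.32, LOC_Os05g01050 0.02, 0.03 and 0.03, LOC_Os01g13700 0.08 in each, LOC_Os03g53190 0.38, 0.37 and 0.37, LOC_Os06g02550 0.29 in each, LOC_Os01g72790 0.02 in each, LOC_Os02g55640 0.06, 0.05 and 0.05, and LOC_Os09g32680 0.38, 0.37 and 0.37. LOC_Os03g53190 had 0.00 with counts divided by 4. With median-ratio scaling, DESeq2 and the groups alone, LOC_Os12g07720 and LOC_Os03g02200 had -0.02. With 1 library left out, lowest to highest, LOC_Os10g34750 had -0.14 to 0.06, LOC_Os12g07720 -0.10 to 0.09, LOC_Os03g53190 -0.10 to 0.07, LOC_Os01g62230 -0.01 to 0.17, LOC_Os09g32680 -0.13 to 0.07 and LOC_Os03g02200 -0.07 to 0.08.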
